A study of Mus musculus with 12 samples.

Results

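Hepcidin, its upstream regulators and the cell-surface proteins that move iron were followed in mouse liver through 10 genes: Hamp, Hamp2, Hfe2, Tfr2, Tfrc, Tmprss6, Slc40a1, Id1, Smad7 and Bmp6. They were taken as all probes whose gene name on the array is one of these, which gave 12 of 55681 probes, and all 10 genes were among the 22124 genes tested. Of the 10, 9 were found under their own name, and Tfr2, written Trfr2 on the array, was found through its transcript accession. Total RNA came from whole livers, kept in an RNA-preserving solution, of untreated BALB/c mice, either wild type or interleukin-18 knockout, and was read on 1-colour oligonucleotide arrays. There were 4 groups of 3 biological replicates: wild type at 6 weeks, wild type at 12 weeks, knockout at 6 weeks and knockout at 12 weeks. The labels give neither sex nor hour of death, and do not say which part of Il18 was removed. The question the design asks of these genes is whether their liver RNA differs with the loss of interleukin-18 at either age, and with age in either genotype.

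Hepcidin is a peptide hormone made by hepatocytes that binds the iron exporter ferroportin and removes it from the cell surface, so that less iron enters plasma from the gut, macrophages and liver. Its gene is switched on by bone morphogenetic protein (BMP) signalling through SMAD proteins, which reports iron stores, and by interleukin-6 through STAT3, which reports inflammation. Mice carry a second, adjacent copy, Hamp2, whose liver RNA is known to be higher in females than in males and whose peptide has not been shown to lower plasma iron as hepcidin 1 does.

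The probes of Hamp and Hamp2 are shown because the results turn on telling these copies apart. They are 60 bases long and lie on the minus strand of chromosome 7, at chr7:31727490-31727549 for Hamp and chr7:31707520-31707579 for Hamp2 (mm9), 19970 bases apart. Capitals mark the bases that differ once the probes are aligned.
Hamp probe: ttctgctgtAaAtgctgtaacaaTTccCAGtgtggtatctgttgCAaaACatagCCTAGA
Hamp2 probe: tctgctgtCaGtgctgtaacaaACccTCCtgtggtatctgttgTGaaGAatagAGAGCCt
Over 59 aligned bases the probes differed at 17, an identity of 71.2%, and their longest shared run was 14 bases. Cross-hybridisation between them was not tested. The exon or untranslated region in which each probe lies was not analysed here.

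The 250 bases upstream of each start are shown because BMP and STAT3 signals are known to meet the hepcidin gene there. They are RefSeq's on GRCm38, minus strand, at chr7:30944030-30944279 for Hamp and chr7:30924182-30924431 for Hamp2. Capitals mark the position of the BMP-responsive core GGCGCC and of the STAT site TTCNNNGAA.
Hamp upstream: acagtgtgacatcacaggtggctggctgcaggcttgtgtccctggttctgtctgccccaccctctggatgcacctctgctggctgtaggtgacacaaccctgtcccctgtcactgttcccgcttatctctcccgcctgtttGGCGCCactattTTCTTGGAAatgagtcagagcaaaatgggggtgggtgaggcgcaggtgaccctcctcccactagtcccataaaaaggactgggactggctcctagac
Hamp2 upstream: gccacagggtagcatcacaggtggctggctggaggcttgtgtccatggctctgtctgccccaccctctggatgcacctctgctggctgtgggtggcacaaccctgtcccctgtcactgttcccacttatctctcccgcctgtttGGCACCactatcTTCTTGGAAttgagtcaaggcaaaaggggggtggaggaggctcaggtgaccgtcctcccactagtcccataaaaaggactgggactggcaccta
Of 247 aligned bases 227 were identical, or 91.9%. The letters TTCTTGGAA stood in both windows, beginning at -97 from the start of Hamp and at -94 from that of Hamp2. GGCGCC began at -109 in Hamp, and the aligned hexamer of Hamp2 was GGCACC, a G4A difference counted from the first base of the hexamer. Among 32851 mouse promoter windows of 250 bases, 9.59% held GGCGCC and 7.02% held TTCNNNGAA. Both motifs read the same on either strand and do not overlap each other here. A match describes letters only. Of the 10 genes 5 had an entry in the promoter table. Among the others of these, GGCGCC stood in 1 of 2 listed starts of Tfrc and in no listed start of Tfr2 or Bmp6. On the chromosome Hamp2 and Hamp are neighbours, followed by Usf2.

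Every probe used for the 10 genes was well above background on all 12 arrays and saturated on 0. The levels below are log2 of the processed signal over the array's own 75th percentile, so a level of 0 is that percentile, and a probe's level is not set against another probe's. Arrays correlated across genes, which are not independent replicates, at 0.987 to 0.996 within groups and at 0.981 to 0.992 between them. Il18 itself was 5.81-fold lower in the knockout at 6 weeks and 5.05-fold lower at 12 weeks, with its probe still well above background on 12 arrays. All 7 hepatocyte markers tested were well above background on every array, with a summed log2 level of 11.96 to 12.31. The arrays lay on 2 slides: slide 1 carried all 6-week wild type arrays and replicate 1 of the 12-week wild type, and slide 2 carried the rest. At 6 weeks slide and genotype therefore cannot be told apart by any comparison within a slide. The liver is a mixture of cell types, and fewer cells of a type cannot be told apart from less RNA per cell. Beyond the name biological replicate, no label says how the animals were bred or housed, so p-values measure the spread between these samples.

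Hamp2 was the only one of the 10 genes to pass the test in any comparison. In limma's fit with Benjamini-Hochberg adjustment over all genes at a threshold of 0.05, 0 of 10 passed between knockout and wild type at 6 weeks, where 21.1% of all genes passed (with the knockout above in 11.7% and below in 9.36%). At 12 weeks 1 of 10 passed, against 8.20% of all genes (5.64% higher, 2.56% lower). From 6 to 12 weeks 1 of 10 passed in the wild type, against 9.06% of all genes (4.62% higher, 4.44% lower), and 0 of 10 in the knockout, against 6.91% (3.98% higher, 2.93% lower). The knockout difference itself changed between ages for 1 of 10, against 10.3% of all genes. With 10 genes, such counts are not read as a result about the group. At an unadjusted p under 0.05, 3 of the 10 genes differed at 6 weeks (Hamp2, Hfe2 and Slc40a1), where 36.9% of all genes did, and 1 from 6 to 12 weeks in the knockout (Bmp6), where 21.9% did. The median log2 difference of the 10 was 0.07 at 6 weeks and 0.07 at 12 weeks, beside 0.02 and 0.01 over all genes.

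Without overlap of the 3 knockout and the 3 wild type arrays stood 4 of 10 genes at 6 weeks (Hamp2, Hfe2, Slc40a1 and Tmprss6) and 4 of 10 at 12 weeks (Hamp, Hamp2, Slc40a1 and Id1). Over all genes, 47.9% and 27.4% did not overlap. Between ages, 2 of 10 did not overlap in the wild type (Hamp2 and Hfe2) and 2 of 10 in the knockout (Tmprss6 and Bmp6), against 26.0% and 31.9% of all genes.

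**Figure D1:**
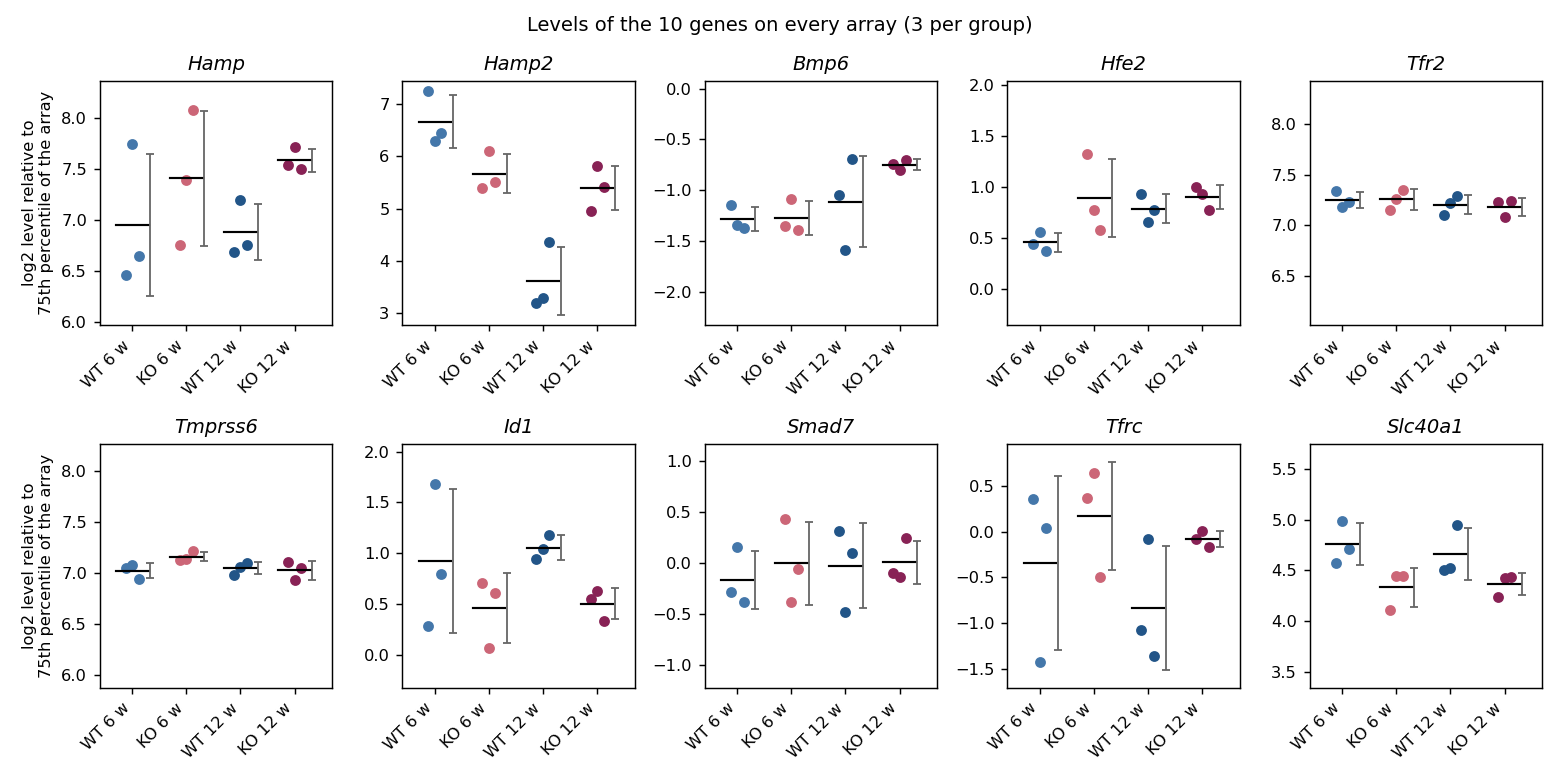
Log2 level of each of the 10 genes relative to the array's 75th percentile, with 1 point per array, a line at the group mean and a bar of 1 SD beside it (3 arrays per group, WT wild type, KO knockout, w weeks; the axes start at different levels, and that of Hamp2 spans more). Hamp2 ran from 3.19 in the 12-week wild type to 7.25 in the 6-week wild type, while Tfr2 stayed between 7.08 and 7.35.

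The iron-sensing side of the pathway begins with Bmp6, the ligand that liver endothelial cells release as iron stores grow (probe at chr13:38591479-38591538, plus strand, mm9). Bmp6 read -1.15, -1.34 and -1.37 in the 6-week wild type and -1.35, -1.08 and -1.39 in the 6-week knockout, and these groups overlapped. At 12 weeks it read -1.05, -1.59 and -0.70 in the wild type and -0.74, -0.80 and -0.70 in the knockout, where the wild type arrays were the more scattered. The knockout arrays of 12 weeks all lay above those of 6 weeks, by 0.53 ± 0.19 (SE, n = 3 per group), which did not pass (limma adjusted p = 0.129). Between genotypes the Bmp6 difference was 0.01 at 6 weeks and 0.36 at 12 weeks (adjusted p = 0.978 and 0.264, limma).

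Hfe2 encodes hemojuvelin, the co-receptor that presents BMP ligands on hepatocytes (chr3:96332113-96332172, plus strand, mm9). Its levels were 0.44, 0.56 and 0.37 in the 6-week wild type and 1.32, 0.78 and 0.58 in the 6-week knockout. All knockout arrays lay above all wild type arrays, with replicate 1 of the knockout well above the others and replicate 3 just above the wild type. The difference of 0.43 ± 0.17 (SE, n = 3 per group) missed the threshold (limma adjusted p = 0.0889). Without replicate 3 of the 6-week knockout it was 0.59 and passed (adjusted p = 0.04). That was 1 of 6 fits without 1 array, and 0 of 12 other alternative settings passed (adjusted p = 0.0652 to 0.288). At 12 weeks Hfe2 read 0.94, 0.65 and 0.77 in the wild type and between 0.78 and 1 in the knockout, which overlapped (difference 0.12, adjusted p = 0.715).

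Tfr2, a transferrin receptor that serves hepatocytes as a sensor of iron-loaded transferrin (chr5:138028646-138028705, plus strand, mm9), was the steadiest of the 10 genes over the groups. Its levels lay between 7.18 and 7.34 in the 6-week wild type and between 7.16 and 7.35 in the 6-week knockout. At 12 weeks they lay between 7.10 and 7.29 in the wild type and between 7.09 and 7.25 in the knockout. The 95% interval of the knockout difference ran from -0.18 to 0.20 at 6 weeks and from -0.21 to 0.17 at 12 weeks on the log2 scale.

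Tmprss6 encodes matriptase-2, a hepatocyte protease known to cut hemojuvelin and so to hold hepcidin down (chr15:78270258-78270317, minus strand, mm9). It read 7.05, 7.08 and 6.94 in the 6-week wild type and 7.13, 7.14 and 7.21 in the 6-week knockout, which lay wholly above. The step was small, 0.14 ± 0.08 (SE, n = 3 per group), and did not pass (limma adjusted p = 0.21). At 12 weeks Tmprss6 read 6.98, 7.06 and 7.10 in the wild type and 7.11, 6.93 and 7.05 in the knockout, with a difference of -0.02 (95% interval -0.19 to 0.15).

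Id1 and Smad7 are read-outs of the BMP signal: Id1 is a direct SMAD target, and Smad7 an inhibitory SMAD that the same signal induces. Id1 (chr2:152563083-152563142, plus strand, mm9) was 0.28, 1.68 and 0.80 in the 6-week wild type and 0.70, 0.07 and 0.61 in the 6-week knockout. Replicate 2 of the 6-week wild type had the highest Id1 of the 12 arrays, and the 6-week groups overlapped. At 12 weeks Id1 was 0.94, 1.04 and 1.18 in the wild type and 0.55, 0.63 and 0.34 in the knockout, so that the knockout lay wholly below. The knockout differences were -0.46 ± 0.30 and -0.55 ± 0.30 (SE, n = 3 per group), neither of which passed (limma adjusted p = 0.288 at both ages).

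Smad7 (chr18:75555371-75555430, plus strand, mm9) ranged from -0.38 to 0.16 in the 6-week wild type and from -0.38 to 0.43 in the 6-week knockout. At 12 weeks it ranged from -0.48 to 0.32 in the wild type and from -0.13 to 0.25 in the knockout. The groups overlapped in every comparison, and the knockout differences were 0.17 and 0.03 (adjusted p = 0.662 and 0.954, limma). The 12-week interval, -0.53 to 0.59, still allows a change of Smad7 in either direction.

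Hamp, which encodes hepcidin 1, read 6.46, 7.75 and 6.65 in the 6-week wild type and 6.75, 7.40 and 8.08 in the 6-week knockout. These groups overlapped, and replicate 2 of the wild type stood more than 1 log2 unit above its other replicates. At 12 weeks Hamp read 6.69, 7.20 and 6.76 in the wild type and 7.55, 7.72 and 7.50 in the knockout. All 3 knockout arrays of 12 weeks lay above all 3 wild type arrays of that age. The knockout was 1.63-fold higher there (0.71 ± 0.37 on the log2 scale, SE, n = 3 per group), which did not pass (limma adjusted p = 0.266), with a 95% interval from -0.11 to 1.53. At 6 weeks the Hamp difference was 0.46 ± 0.37 (adjusted p = 0.391). With age Hamp differed by -0.07 in the wild type and 0.18 in the knockout (adjusted p = 0.924 and 0.849), and the knockout difference did not pass as unequal between ages (0.25 ± 0.52, adjusted p = 0.804). At both ages a knockout difference of 1 log2 unit lies inside the 95% interval of Hamp.

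Hamp2, the second hepcidin gene, passed with age in the wild type only and between genotypes at 12 weeks only. It read 7.25, 6.30 and 6.45 in the 6-week wild type and 3.19, 3.28 and 4.35 in the 12-week wild type. Every 12-week array lay far below every 6-week array, with replicate 3 the highest of the older mice. Hamp2 fell 8.34-fold from 6 to 12 weeks in the wild type (-3.06 ± 0.37, SE, n = 3 per group, limma adjusted p = 0.0013).

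In the knockout Hamp2 read 5.40, 6.10 and 5.51 at 6 weeks and 4.95, 5.81 and 5.42 at 12 weeks. These groups overlapped, with 1 array of each outside the range of the other, and the age difference of -0.28 ± 0.37 did not pass (adjusted p = 0.743, 95% interval -1.09 to 0.54). The age differences of the 2 genotypes were themselves unequal, by 2.78 ± 0.52 (SE, limma adjusted p = 0.00862), and this held in every one of the 11 alternative settings and 12 fits without 1 array in which it was computed.

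At 12 weeks Hamp2 was 3.45-fold higher in the knockout than in the wild type (1.79 ± 0.37, SE, n = 3 per group, limma adjusted p = 0.0183), with all knockout arrays above all wild type arrays. With the slide as a fixed block it was 1.58 (adjusted p = 0.0561), and within slide 2, where 2 wild type arrays remain, 1.58 (adjusted p = 0.0741). With the slide as a random block it was 1.70 and passed (adjusted p = 0.0241). The 12-week call was also lost without replicate 1 or 2 of the wild type or replicate 2 or 3 of the knockout (adjusted p = 0.0562, 0.0525, 0.0606 and 0.0614), with differences from 1.58 to 2.16 over all 6 such fits. Leaving out replicate 1 of the wild type gave 1.58, as the fixed block and slide 2 alone did. These settings set the same arrays against each other at 12 weeks and are not separate checks. At 6 weeks the order was the opposite: all knockout arrays of Hamp2 lay below all wild type arrays, by 1 log2 unit on average (95% interval -1.81 to -0.18), and this did not pass (adjusted p = 0.0768). Blocking on slide gave -1.62 at 6 weeks (adjusted p = 0.228), where replicate 1 of the 12-week wild type alone links the slides. The fall with age in the wild type was -3.48 with that block (adjusted p = 0.011) and -3.48 within slide 1, where it sets 1 array of 12 weeks against 3 of 6 weeks (adjusted p = 0.0969).

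Ordered by group mean, Hamp2 was lowest in the 12-week wild type (3.61 ± 0.65, SD, n = 3), then 12-week knockout (5.39 ± 0.43), 6-week knockout (5.67 ± 0.38) and 6-week wild type (6.67 ± 0.51). Of the neighbours in this order only the first pair passed. The knockout groups overlapped, and the last pair did not overlap but missed the threshold.

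**Figure D2:**
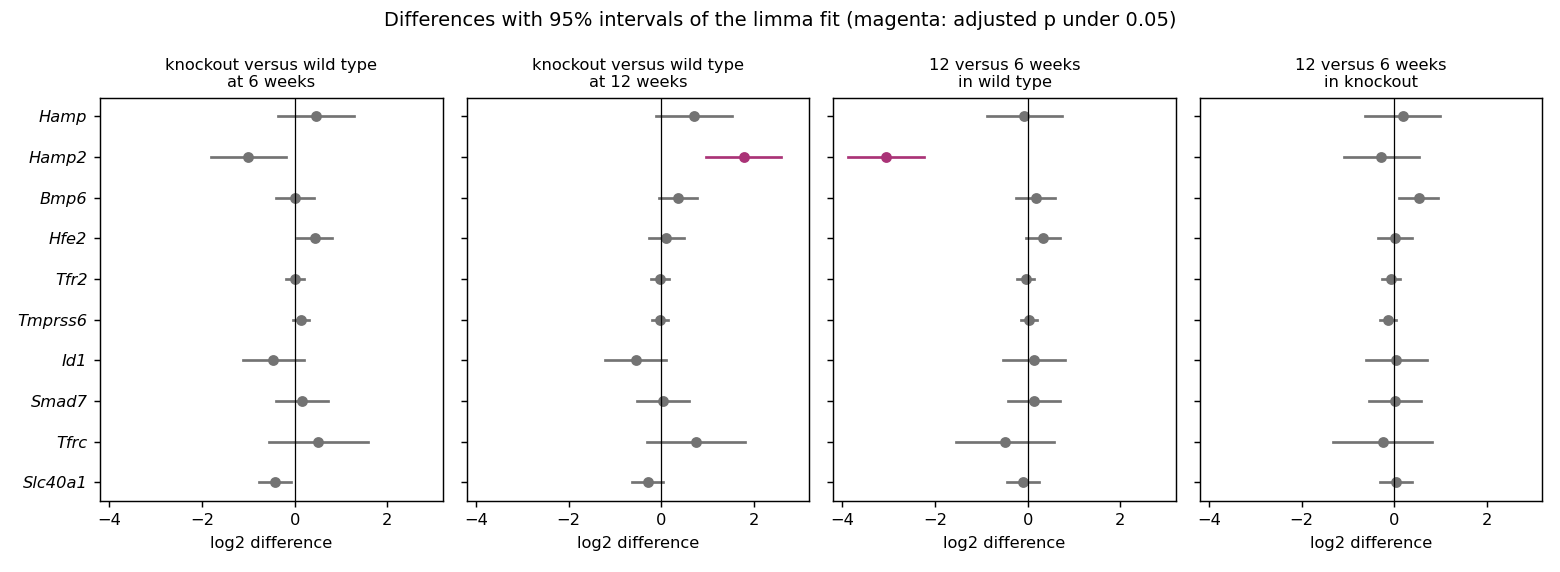
Log2 differences of the 10 genes in 4 comparisons, with 95% intervals of the limma fit (points are differences of group means, 3 arrays per group; magenta marks an adjusted p under 0.05, grey the rest). Hamp2 is the only gene in magenta, at 1.79 for knockout against wild type at 12 weeks and at -3.06 for 12 against 6 weeks in the wild type.

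Because Hamp2 is known as a sex-biased gene, sex-linked and sex-biased genes are given beside it; they were chosen after their values were seen, and their part in the Hamp2 result was not tested. Xist, the RNA of the inactive X chromosome, was well above background on 0 of 12 arrays by either of its probes. Ddx3y, on the Y chromosome, was well above background on all 12, at 2.07 to 2.51. Cyp2b13, a cytochrome P450 with female-biased liver expression, ran from 2.08 to 3.84 in the 6-week wild type and from -5.43 to -3.43 in the 12-week wild type. It was well above background on 0 of 6 knockout arrays, so at 6 weeks it was at least 158-fold lower in the knockout. Cyp7b1, a male-biased steroid hydroxylase, ran from 3.49 to 3.68 in the 6-week wild type and from 6.38 to 7.53 on the other 9 arrays. The 6-week wild type was thus the group with the highest Hamp2 and Cyp2b13 and the lowest Cyp7b1. At 12 weeks neither Cyp2b13 nor Cyp7b1 passed between genotypes (adjusted p = 0.684 and 0.188, limma). Cyp2b13 was then well above background on 2 wild type arrays and 0 knockout arrays, so its value cannot decide whether it differed. Cyp7b1 differed by 0.47 ± 0.21 (SE) at that age, so a difference is not excluded. Elovl3, a male-biased fatty acid elongase, differed by -0.96 ± 0.34 (SE) and did not pass either (limma adjusted p = 0.111).

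Iron enters cells through Tfrc, the transferrin receptor whose RNA is stabilised when a cell lacks iron. It had 3 probes, of which the brightest, spotted 10 times per array, was used (chr16:32632255-32632314, plus strand, mm9). Tfrc read 0.36, -1.43 and 0.04 in the 6-week wild type and 0.37, 0.64 and -0.49 in the 6-week knockout. At 12 weeks it read -1.07, -0.07 and -1.36 in the wild type and -0.08, 0.01 and -0.16 in the knockout. The wild type arrays were widely spread at both ages (SD 0.95 and 0.68, n = 3), while the 12-week knockout arrays lay close together (SD 0.09, n = 3). Group means were higher in the knockout by 0.52 ± 0.48 and 0.76 ± 0.48 (SE, n = 3 per group), and neither passed (limma adjusted p = 0.457 and 0.361). A second probe of Tfrc, also well above background on 12 arrays, gave 0.85 and 0.52 (adjusted p = 0.269 and 0.585), and the third was well above background on 0 arrays. On the second probe the lowest arrays were replicate 2 of the 6-week wild type, at -3.57, and replicate 1 of the 12-week wild type, at -3.43.

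Slc40a1 encodes ferroportin, the exporter on which hepcidin acts, made in liver by both hepatocytes and Kupffer cells (chr1:45965255-45965314, minus strand, mm9). It read 4.57, 4.98 and 4.71 in the 6-week wild type and 4.11, 4.44 and 4.45 in the 6-week knockout. At 12 weeks it read 4.50, 4.53 and 4.95 in the wild type and 4.24, 4.42 and 4.44 in the knockout. At both ages all 3 knockout arrays lay below the lowest wild type array. The differences were -0.42 ± 0.15 and -0.29 ± 0.15 (SE, n = 3 per group) and did not pass (limma adjusted p = 0.0738 and 0.269). The 6-week value of -0.47 under quantile normalization did (adjusted p = 0.0459). At 6 weeks Slc40a1 passed in 2 of 12 alternative settings (adjusted p up to 0.238) and in 0 of 6 fits without 1 array. Kupffer cell and macrophage markers are given beside it. Their summed log2 level was 6.87 to 7.07 in the 6-week wild type and 7.05 to 7.18 in the 6-week knockout. At 12 weeks it was 7.24 to 7.64 against 6.67 to 7.38, and the ranges overlapped at both ages. The part of these markers in the Slc40a1 values was not tested.

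Over the 12 arrays, the pair of genes with the strongest Pearson correlation was Tfrc and Id1, in opposite directions. Its r was -0.81 (permutation p = 0.00102, 0.0459 after Benjamini-Hochberg adjustment over the 45 pairs of the 10 genes). The permutations shuffled the 12 arrays across groups and slides, so differences between groups enter all p-values given here for pairs. Spearman's rho was -0.62 (permutation p = 0.0377, adjusted 0.66). Replicate 2 of the 6-week wild type had both the lowest Tfrc and the highest Id1. Without it and replicate 3 of the 12-week wild type, the arrays farthest from the median of Tfrc, r was -0.59. It was -0.70 over the 8 arrays of slide 2, and -0.75 after each group's mean was taken out. No p-value was computed for these values. Slide 1 held too few arrays for a value. By rho the strongest pair was instead Hfe2 and Slc40a1, at -0.80 (permutation p = 0.0025, adjusted 0.112), with an r of -0.66 (p = 0.0201, adjusted 0.281). Without the 2 arrays farthest from the median of Hfe2 its r was -0.45, over slide 2 -0.62 and within groups -0.42. No pair other than Tfrc and Id1 by r passed after adjustment. Hamp and Hamp2 had an r of 0.06 and a rho of -0.01 (permutation p = 0.849 for r, adjusted 0.992, and 0.997 for rho after adjustment), although they are adjacent copies.

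**Figure D3:**
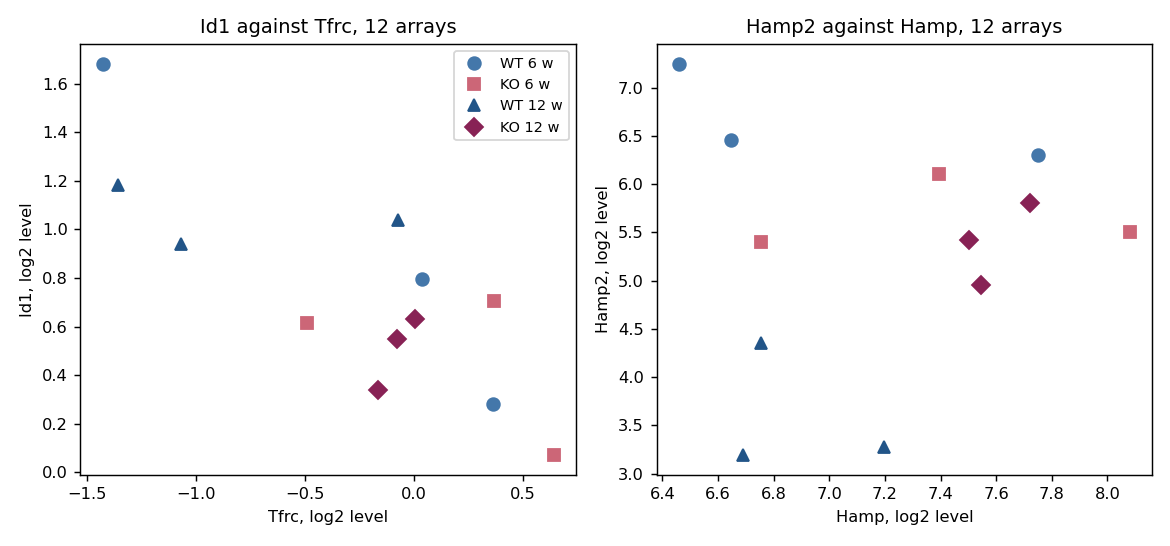
Levels of Id1 against Tfrc (left) and of Hamp2 against Hamp (right), 1 point per array, by group (log2 relative to the array's 75th percentile; WT wild type, KO knockout, w weeks). Id1 was highest where Tfrc was lowest (r = -0.81), while Hamp2 did not follow Hamp (r = 0.06).

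The genes with the pattern most like Hamp over the 12 arrays, by the root mean square difference of log2 levels centred on each gene's mean, were Fam161a, Mlxip, Ube2d1, Myh10 and Odf3b, at 0.32 to 0.35 log2 units among 13821 named genes. Fam161a and Ube2d1 were dim, being well above background on 2 and 1 of 3 arrays of the 6-week wild type. The distances were not set against that of a gene that does not change. By the same measure, a choice made after its values were seen, Hamp2 was most like Nrep, Lrtm1, Nnt, Tff2 and Pdxp, at 0.60 to 0.71. A fall from 6 to 12 weeks in the wild type is part of the pattern they were chosen for, so no test of it is given. Tff2 and Pdxp were dim in the 12-week wild type, being well above background on 2 and 1 of its 3 arrays. Nnt, the mitochondrial transhydrogenase that makes NADPH, read 5.42 to 5.48 in the 6-week wild type and 3.61 to 4.01 in the 12-week wild type. It read 5.26 to 5.52 on the 6 knockout arrays, so that the 12-week wild type alone stood apart. The knockout difference of Nnt was 1.63 at 12 weeks and -0.06 at 6 weeks on the log2 scale.

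The other genes of hepcidin control and iron handling were described by 7 lists with 70 genes tested, chosen like the 10 genes with earlier results known. Between genotypes 8 passed at 6 weeks, 4 in each direction, and 6 at 12 weeks, of which 4 were higher in the knockout. With age 9 passed in the wild type (6 higher, 3 lower) and 6 in the knockout (3 and 3). These are 11.4%, 8.57%, 12.9% and 8.57% of the 70, beside 21.1%, 8.20%, 9.06% and 6.91% of all genes. With the slide as a fixed block, 0 of the 8 passed at 6 weeks and 5 of the 6 at 12 weeks. Within slide 2, 2 of the 6 passed at 12 weeks, Il6 and Slc39a14. With age 2 of the 9 passed under that block in the wild type and 4 of the 6 in the knockout.

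Among 11 BMP ligands, receptors and co-receptors, 1 passed at 6 weeks and 0 at 12 weeks. It was Hfe, the haemochromatosis gene that acts with Tfr2, at 3.35, 3.41 and 3.49 in the wild type and 3.68, 3.75 and 3.78 in the knockout (difference 0.32 ± 0.08, SE, limma adjusted p = 0.016). Bmp2, the other main endothelial ligand for hepcidin, differed by -0.10 at 12 weeks (adjusted p = 0.675). The list's medians were 0.01 and 0.08.

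Among 10 SMAD transducers and BMP targets, Id4 rose in the 6-week knockout (0.79 ± 0.22, SE, adjusted p = 0.028) and Bmper, a secreted BMP-binding protein, rose in the 12-week knockout (1.07 ± 0.23, SE, adjusted p = 0.0203). Both were dim, with levels between -4.62 and -2.17. With the slide block the 6-week value of Id4 was 0.12. The list's medians were 0.14 and 0.07.

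The interleukin-6 and STAT3 arm had 14 genes, of which 1 passed at 6 weeks and 2 at 12 weeks, all lower in the knockout, with list medians of 0.11 and -0.41. Il1b, an inflammatory cytokine, read 0.19, -0.23 and -0.41 in the 12-week wild type and -2.59, -2.02 and -1.41 in the 12-week knockout. It was 3.63-fold lower there (limma adjusted p = 0.00853). Il6 was well above background on 3 arrays of the 12-week wild type and 0 of the 12-week knockout, and was at least 1.71-fold lower (adjusted p = 0.0107). Lcn2, a siderophore-binding protein of the acute phase, fell by 1.26 on the log2 scale in the 6-week knockout (adjusted p = 0.0099). The acute-phase genes Saa1, Saa2, Saa3 and Fgl1 and the STAT3 inhibitor Socs3 did not pass between genotypes at either age. Socs3 read 0.45 to 0.77 in the 6-week knockout and 2.30 to 4.28 in the 12-week knockout, 6.26-fold higher with age (adjusted p = 0.0157). In the wild type it read 0.67 to 1.47 at 6 weeks and 1.68 to 3.34 at 12 weeks, also without overlap, which did not pass. The age difference of Socs3 did not pass as unequal between genotypes.

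Among 6 transcription factors known at the hepcidin promoter, Cebpa, which drives basal Hamp transcription, passed at both ages and in opposite directions. It read 5.04, 5.12 and 5.10 in the 6-week wild type and 4.70, 4.58 and 4.59 in the 6-week knockout (-0.47 ± 0.08, SE, n = 3 per group, limma adjusted p = 0.00321). At 12 weeks it read 4.98, 4.83 and 5.05 in the wild type and 5.33, 5.26 and 5.25 in the knockout (0.32 ± 0.08, adjusted p = 0.0322), and the differences at the 2 ages were unequal (0.79, adjusted p = 0.00214). Cebpa passed at neither age with the slide as a fixed block (-0.42, adjusted p = 0.137, and 0.34, adjusted p = 0.0507), nor within slide 2 at 12 weeks (adjusted p = 0.102), while the difference between ages did (0.76, adjusted p = 0.0125). Usf2, the gene next to Hamp, was higher in the 6-week knockout by its brighter probe (0.55, adjusted p = 0.0154 over single probes) and was lower by its second probe (-0.45, adjusted p = 0.0158), so no direction is given for it. Hnf4a, Usf1, Creb3l3 and Cebpb did not pass at either age.

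Among 15 genes of iron uptake, storage and export, the metal importer Slc39a14 (ZIP14) passed at both ages. It read 3.93, 4.10 and 4.06 in the 6-week wild type and 3.52, 3.75 and 3.81 in the 6-week knockout (-0.33 ± 0.10, SE, adjusted p = 0.0337), and 3.76, 3.92 and 3.82 against 4.45, 4.47 and 4.63 at 12 weeks (0.68 ± 0.10, adjusted p = 0.00373). With the slide as a fixed block its 6-week difference was -0.44 and did not pass (adjusted p = 0.211). Its 12-week rise was 0.65 within slide 2 (adjusted p = 0.0353), and the difference between the ages was 1.02 (adjusted p = 0.00178). Slc11a2, the divalent metal transporter DMT1, rose at 12 weeks by its brighter probe (0.77, adjusted p = 0.0171 over single probes) and not by its second (-0.08, adjusted p = 0.753). Scara5, a ferritin receptor, was at least 12.7-fold higher in the 6-week knockout by the probe used, which cleared background on 0 of 3 arrays of that age in the wild type (adjusted p = 0.00348 over single probes), while its second probe gave 0.18 (adjusted p = 0.714). The ferritin chains Fth1 and Ftl1 and the plasma carrier transferrin, Trf, did not pass in either genotype comparison: Fth1 lay between 9.08 and 9.41, Ftl1 between 9.51 and 9.87, and Trf between 9.92 and 10.27 on the 12 arrays.

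Of the 3 genes of cellular iron sensing, Fbxl5, which tags the iron regulatory protein IRP2 for breakdown, fell in the 6-week knockout (-0.45 ± 0.11, SE, limma adjusted p = 0.0173) and 0 passed at 12 weeks. Aco1 and Ireb2, the iron regulatory proteins that stabilise Tfrc RNA, did not pass at either age. Of 11 genes of haem and haemoglobin handling, 0 passed between genotypes at either age, and with age in the wild type Hmox1, the haem-degrading enzyme, rose (0.41, adjusted p = 0.0386) and Blvra, a biliverdin reductase, fell (-0.27, adjusted p = 0.0234). Neither passed with the slide as a fixed block (0.27, adjusted p = 0.324, and -0.29, adjusted p = 0.083). Erfe, Bambi and Cybrd1, also listed, were not among the genes tested.

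**Figure D4:**
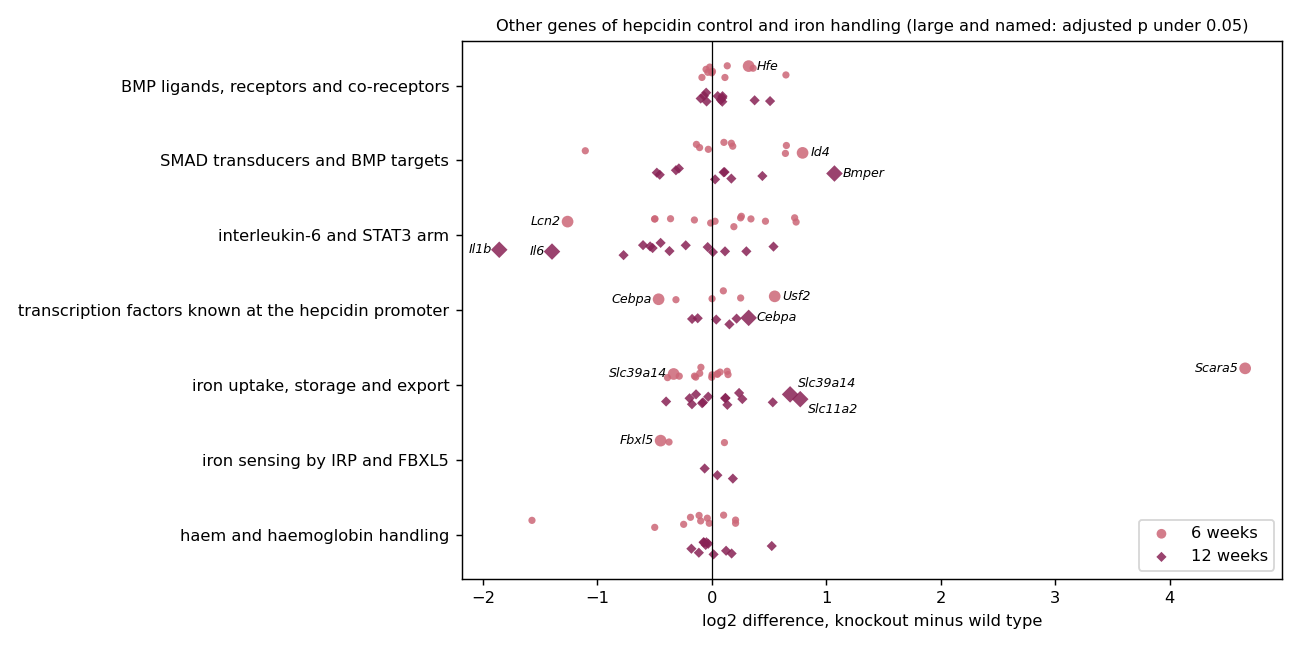
Log2 differences, knockout minus wild type, of the 70 genes in 7 lists of hepcidin control and iron handling at 6 weeks (circles) and 12 weeks (diamonds); large named symbols had an adjusted p under 0.05, and the vertical position within a list is arbitrary. Scara5, at a fitted 4.66, lies far from the rest by 1 of its 2 probes, and Cebpa and Slc39a14 are named on opposite sides of 0 at the 2 ages. At 6 weeks neither Cebpa nor Slc39a14 passed with the slide as a fixed block.

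Red cell production is the main consumer of iron and a known brake on hepcidin, so erythroid markers are given beside the hepcidin genes; their part in those values was not tested. Of these markers 4 were tested, all well above background on 12 arrays. In the knockout 3 were higher and 1 was lower at 6 weeks, and 3 were higher at 12 weeks. Alas2, the erythroid haem synthesis enzyme, read 4.26, 3.94 and 4.09 in the 6-week wild type and 5.40, 5.62 and 5.66 in the 6-week knockout, 2.75-fold higher (limma adjusted p = 0.000132), and it passed with the slide as a fixed block too (1.61, adjusted p = 0.0135). Hbb-bt, an adult beta globin, was 1.99-fold and 1.79-fold higher in the knockout (adjusted p = 0.0132 and 0.046), and Klf1, an erythroid transcription factor, was lower at 6 weeks (-0.91, adjusted p = 0.0218) and higher at 12 weeks (1.26, adjusted p = 0.0116). The summed log2 level of the 4 markers was 5.73 to 5.88 and 6.04 to 6.42 in the 6-week and 12-week wild type, and 6.58 to 7.19 and 6.67 to 7.12 in the knockout at these ages. This is the log2 of summed unlogged levels, so it rests mainly on Hbb-bt (5.0 or more on every array) and Alas2 (3.94 or more). Klf1 was at most -0.29 and Slc4a1 at most -1.88 on any array, so they add little. In this sum every knockout array exceeded every wild type array, which does not hold for Klf1 at 6 weeks.

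Over all 6 marker lists 12 of 40 genes tested passed between genotypes at 6 weeks and 9 of 40 at 12 weeks, or 30% and 22.5% beside 21.1% and 8.20% of all genes. With the slide as a fixed block 1 (Alas2) and 4 of these passed, and within slide 2 at 12 weeks 0. Of 8 sinusoidal endothelial markers, the cells that release Bmp6, 2 passed at 6 weeks (Stab1 higher, Kdr lower by 1 of 2 probes) and 1 at 12 weeks (Oit3 higher), with summed log2 levels of 6.58 to 6.84 over the 12 arrays. Of 10 Kupffer cell and macrophage markers, 0 passed at 6 weeks and 2 fell in the 12-week knockout, Cd14 (-0.70, adjusted p = 0.0146) and Folr2 (-0.53, adjusted p = 0.0357). Of 6 stellate cell markers, Lrat fell at 6 weeks (-0.50, adjusted p = 0.0344) and 0 passed at 12 weeks. Of 7 hepatocyte markers, Apoa1 rose and Tdo2 fell at 6 weeks, and Cps1 rose and Apoa1 fell at 12 weeks. Of 5 proliferation markers, 3 rose in the 6-week knockout (Mki67, Ccna2 and Ccnb1) and Ccnb1 fell in the 12-week knockout. Ccna2 and Ccnb1 were dim, each well above background on 2 of 3 arrays of the 6-week wild type. With the slide as a fixed block the 6-week differences were 0.38 for Mki67, 0.56 for Ccna2 and 0.46 for Ccnb1.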

How the data were processed

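Each array was scanned and read by the authors with Agilent Feature Extraction 10.7.3.1, per the submitters' processing notes. The deposited intensity used here is the processed signal, background-subtracted and not scaled between arrays, per the file headers. The deposited series table held the same intensity rounded, within 0.497%, linear and uncentred, with column medians of 21.6 to 29.5. Probe positions are on mm9, per the file headers. Symbols came from a RefSeq table by accession for 26687 probes, symbol for 2536 and synonym for 474. The other 25984 kept the file's name.

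Control and outlier spots were left out, spots of a probe averaged, and log2 levels taken relative to the array's 75th percentile (349 to 420 in scanner units). A probe was tested if well above background on all 3 arrays of a group, and the brightest tested probe stood for its gene. All 12 arrays entered 1 limma 3.58.1 fit in R 4.3.3 (lmFit, eBayes), adjusted by Benjamini-Hochberg over 22124 genes, and errors are its standard errors. The steps were tested on simulated data. "At least" folds set the brighter group's mean against, per array, the higher of the dim probe's signal and the lowest signal well above background. The number of arrays limits the precision.

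Members, lists and tests were chosen with earlier results of these data known. The text names all members, per list up to 3 genes of smallest p and any gene a small count needs, and the 5 genes most like Hamp. Genes named for their levels (Fth1, Ftl1, Trf, Bmp2, Saa1, Saa2, Saa3, Fgl1, Socs3, Hmox1) or as chosen after their values were seen lie outside that rule. Correlations used 100000 permutations. Alternatives covered background correction, scaling, dim probes, probes per gene, samples fitted, slide, a replicate block and leaving out each array.

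Replicate numbers are shared by the groups, and no label says whether they pair the animals. Deviations of same-numbered arrays correlated at -0.06 to 0.18, with 2 of 3 pairs over 0.1 between ages in the wild type. With 3 arrays per group these values cannot decide whether the animals were paired.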

Additional observations from a re-analysis of the deposited data

Results flagged for a closer look

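The results here are those whose knockout difference was unequal between 6 and 12 weeks, by the interaction term of the limma fit, given as the 12-week minus the 6-week difference on the log2 scale. Hamp2 was the only one of the 10 genes among them, at 2.78 (adjusted p = 0.00862).

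In the lists of hepcidin control and iron handling the term was 1.02 for Slc39a14, 1.16 for Slc11a2 by 1 of 2 probes, -4.13 for Scara5 by 1 of 2 probes, 0.79 for Cebpa, -0.67 for Usf2, whose probes disagreed, -1.11 for Id4, -2.33 for Il1b and -0.71 for Stat3. Stat3, the transducer of the interleukin-6 signal, rose with age in the wild type by 0.51 (adjusted p = 0.0269 over single probes), while its second probe gave 0.35 (adjusted p = 0.137). With the slide as a fixed block 4 of these 8 terms passed (Slc39a14, Slc11a2, Cebpa and Il1b), and those of Id4, Stat3, Usf2 and Scara5 did not (adjusted p = 0.215, 0.109, 0.0997 and 0.128).

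Among cell markers it was -1.13 for Alas2, 2.17 for Klf1, -0.71 for Apoa1, 0.57 for Tdo2, -0.88 for Cd14, -0.67 for Folr2, -2.06 for Mki67, -2.21 for Ccna2 and -2.10 for Ccnb1. With that block 4 of these 9 passed (Alas2, Klf1, Apoa1 and Ccnb1), and Tdo2, Cd14, Folr2, Mki67 and Ccna2 did not (adjusted p = 0.147, 0.0794, 0.183, 0.127 and 0.0964). Among genes given beside Hamp2 it was 7.71 for Cyp2b13, 5.59 for Cyp2b9, -3.13 for Cyp7b1 and -7.12 for Elovl3, the last a male-biased fatty acid elongase. Of the genes nearest to Hamp2 in pattern it was 2.92 for Nrep, 3.54 for Lrtm1, 1.70 for Nnt and 2.59 for Pdxp. Tff2, the other of these 5 genes, had 1.245 and did not pass (limma adjusted p = 0.0775). All 5 were chosen for likeness to Hamp2 over the same 12 arrays, so their terms are not read as a test. The terms of Cyp2b13, Cyp2b9 and Scara5 are fitted values that rest on signals not well above background, on 0 of 6 knockout arrays for both cytochromes and 0 of 3 arrays of the 6-week wild type for Scara5, so their sizes are not measured. Ccna2, Ccnb1 and Pdxp were each well above background on 2 of 3 arrays of the 6-week wild type.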

How the results depend on the processing

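Of the single-gene results of the 10 genes, 903 values under an alternative kept their direction and their side of the threshold, 4 passed anew, 8 no longer passed, and 65 that passed in neither fit changed sign. The number of the 10 genes that passed was 0 in the 6-week comparison and became 1 under quantile normalization. It also became 1 with a replicate block (Slc40a1, -0.42, adjusted p = 0.0445), on numbers that no label says pair the animals. Leaving out single arrays it was 0 to 1. At 12 weeks it was 1 and became 0 with only the 2 groups fitted (Hamp2, adjusted p = 0.0695), 0 with the slide as a fixed block, 0 within slide 2, and 0 to 1 leaving out single arrays. With age in the wild type it became 0 within slide 1 and was 1 in each fit without an array. With age in the knockout it became 1 when only these groups were fitted (Bmp6, 0.53, adjusted p = 0.0377). The replicate block changed no other call of the 10 genes. Over all genes 4663 passed in the 6-week comparison, against 588 and 1228 with the slide as a fixed or random block, and 2550 to 3084 leaving out single arrays. At 12 weeks 1814 passed, against 915 under scaling to the array median, 825 without the filter on dim probes, 378 with 2 groups fitted, 733 within slide 2 and 680 to 2068 leaving out single arrays. With age in the wild type 2005 passed, against 1231, 1232 and 395 under the first 3 of these, 728 and 1082 with the slide as a fixed or random block, 9 within slide 1 and 986 to 3813 leaving out single arrays. With age in the knockout 1528 passed, against 823 under median scaling, 729 without the filter and 627 to 914 leaving out single arrays. The knockout difference changed with age for 2287, against 1383 and 1335 under these 2. The causes were not tested. All 10 genes lay well above background on all 12 arrays, and each group had 3 replicates.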
